A study of Mus musculus with 6 samples.

Results

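The transcripts of 9 genes that link Kit ligand to PI3K, AKT, the TSC complex and the FOXO factors, namely *Kitl*, *Kit*, *Pik3ca*, *Akt1*, *Akt2*, *Tsc1*, *Tsc2*, *Foxo1* and *Foxo3*, were followed in mouse ovarian granulosa cells (GCs). They were chosen by name, with earlier results of these data known. Each matched 1 row of the deposited table of 54532 genes, and all 9 were detected in every sample. Female ICR mice were 3 weeks old and had been primed with 5 IU of PMSG, a gonadotropin that drives antral follicles to grow. At 22 h after priming, they received 1 intraperitoneal injection of PBS, or of cyclophosphamide (CTX, an alkylating chemotherapeutic) at 120 mg/kg, and GCs were taken 6 h later for RNA-seq. Each group had 3 samples and each sample pooled the GCs of 3 mice, so the animals within a sample cannot be told apart. The comparison asked which transcripts of GCs differ soon after CTX, and no gene was edited or targeted in these mice.

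Kit ligand is made by GCs and acts on the receptor KIT, which in the follicle is carried by the oocyte and by theca cells. Active receptors recruit PI3K, whose lipid product brings AKT to the membrane, and AKT phosphorylates FOXO factors so that they leave the nucleus, and TSC2 so that it no longer restrains mTOR complex 1. In oocytes of primordial follicles this chain is known for controlling follicle activation, and in GCs of growing follicles FOXO1 is known as a target of FSH signalling. All of these steps act largely through phosphorylation, which RNA-seq does not measure.

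None of the 9 transcripts was a differentially expressed gene (DEG, adjusted *P* below 0.05 and more than 2-fold) after CTX, and none reached an adjusted *P* below 0.05 at any fold (limma with Benjamini-Hochberg adjustment over 14463 genes). In the same fit, 0.961% of all tested genes were DEGs, 1.40% had an adjusted *P* below 0.05 with a higher level after CTX and 0.360% with a lower level. At an unadjusted *P* below 0.05 there was 1 of the 9, *Foxo3*, against 19.6% of all tested genes. The mean level was higher after CTX for 4 genes and lower for 5, and the log2 fold changes ran from -0.28 for *Akt2* to 0.50 for *Kit*. Their median was -0.06, beside -0.0081 over all tested genes. Groups did not overlap for 2 of the 9. The CTX levels were all higher than the PBS levels for *Foxo3*, as for 15.0% of all tested genes, and all lower for *Tsc1*, as for 14.1%. Among the other genes of the pathway, 6 of 57 tested passed the adjusted threshold, all of them higher after CTX, and their number was 2 with a block on the replicate number and without PBS replicate 1, 2 or 3 or CTX replicate 3. Whether the 9 genes differ from those 57 was not tested. All lists were chosen with earlier results of these data known, so the counts called in them are descriptions only.

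The 6 samples held between 16005869 and 18455011 reads on genes. CTX replicate 2 stood apart, at 74.7 on the first principal component (46.8% of the variance), where the other 5 samples lay between -26.6 and 13.2. The granulosa label was met, since all 10 granulosa markers were detected in every sample and *Inha*, which encodes the alpha subunit of inhibin, was listed at 9205, 9212 and 10402 FPKM (fragments per kilobase, normalized for depth, so that levels can be set side by side between genes) in PBS replicates 1 to 3 and at 8933, 9180 and 8556 in CTX replicates 1 to 3. The summed granulosa markers were 13052 to 14337 FPKM in PBS and 11144 to 12013 in CTX samples, and 7 of the 10 were lower in every CTX sample, as were 14.1% of all tested genes. The granulosa sum was mostly *Inha*, and 2 of the 10 markers had a higher mean in CTX samples. *Amh*, chosen after its values were seen, was higher in every CTX sample (48.4 to 51.1 FPKM in PBS, and 54.3, 179 and 85.5 in CTX replicates 1 to 3). *Cyp19a1* and *Inhbb*, also chosen after their values were seen, were lower in every CTX sample. *Cyp19a1* was at 59.2 to 62.4 FPKM in PBS, and at 47.6, 6.61 and 32.5 in CTX replicates 1 to 3. The mean of *Inhbb* was 1623 FPKM in PBS and 831 in CTX samples. The summed theca and interstitial markers, led by *Cyp11a1*, were 589 to 608 FPKM in PBS samples, and 777, 44.4 and 521 in CTX replicates 1, 2 and 3. That sum was mostly *Cyp11a1* (564, 544 and 553 FPKM in PBS replicates 1 to 3 and 727, 14.4 and 486 in CTX replicates 1 to 3), a gene that GCs also express as they luteinize. Of the 7 markers 4 had a higher mean in CTX samples, and *Acta2*, chosen after its values were seen, was higher in every CTX sample (7.66 to 8.60 FPKM in PBS, and 14.7, 20.5 and 16.7 in CTX replicates 1 to 3). *Cyp17a1*, also chosen after its values were seen, was lower in every CTX sample (30.8 to 34.4 FPKM in PBS, and 29.6, 1.25 and 12.4 in CTX replicates 1 to 3). Stromal markers (17.6 to 18.6 in PBS), led by *Col1a1*, were 36.3, 7.89 and 28.0 in CTX replicates 1, 2 and 3. Leukocyte markers (17.1 to 19.3 in PBS), led by *Lyz2*, were 28.9, 57.0 and 20.1, and 2 of the 6 were higher in every CTX sample, as were 15.0% of all tested genes. *Lyz2* alone was at 22.9, 45.8 and 14.7 in those samples, whereas *Ptprc*, the gene of the pan-leukocyte antigen CD45 and chosen after its values were seen, was at no more than 0.0983 FPKM in any sample. Endothelial markers, led by *Cdh5*, summed to at most 5.45 FPKM in any sample, and of the 5 mast cell markers 4 were listed at 0 throughout, with *Cpa3* at no more than 0.041. The part of these shifts in the results was not tested. In bulk samples, fewer cells of a type and less RNA per cell cannot be told apart.

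The levels of the 9 genes spanned a wide range and kept the same order in both groups. In PBS samples *Foxo1* was the highest, followed by *Akt1*, *Akt2*, *Foxo3*, *Tsc2*, *Pik3ca*, *Tsc1*, *Kitl* and *Kit*. The mean level of *Foxo1* exceeded that of 96.1% of tested genes, that of *Akt1* 93.5% and that of *Akt2* 86.0%. *Kitl* exceeded 20.5% and *Kit* 1.54%. Neighbours in this order were apart in every sample, except that the PBS ranges of *Foxo3* (11.2 to 13.3 FPKM) and *Tsc2* (10.7 to 12.0 FPKM) overlapped. In CTX samples those ranges were 13.7 to 16.9 and 10.5 to 11.3 FPKM, and no neighbours overlapped. Spread between samples was small among PBS samples, with coefficients of variation from 3.09% for *Akt1* to 17.0% for *Kit*. Among CTX samples they ran from 3.59% for *Tsc2* to 28.4% for *Foxo1*.

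**Figure D1:**
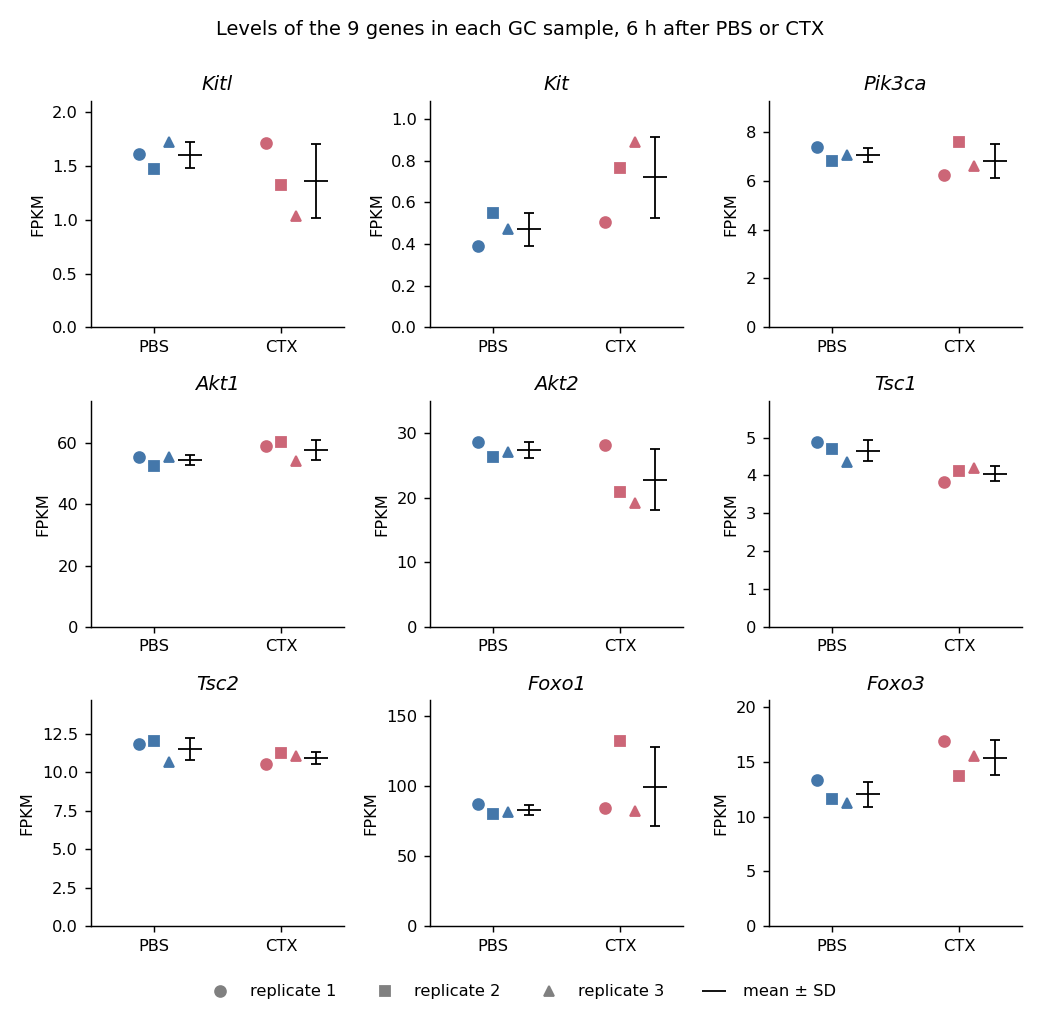
Level in FPKM (vertical axes, each starting at 0) of each of the 9 genes in the 3 PBS samples (blue) and 3 CTX samples (red), with the replicate number as the symbol and the group mean ± SD beside the points. Only in the panels of *Foxo3* and *Tsc1* do the groups not overlap, and in the panel of *Foxo1* CTX replicate 2 lies at 132 FPKM while the other 5 samples lie between 80.0 and 87.1.

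*Kitl* encodes the ligand of KIT and lies at chr10:100015630-100100416 on the plus strand (mm10). It was measured at 1.61, 1.48 and 1.72 FPKM in PBS replicates 1 to 3 (mean 1.60 ± 0.124, SD, n = 3) and at 1.72, 1.33 and 1.04 FPKM in CTX replicates 1 to 3 (1.36 ± 0.341). CTX replicate 1 lay at the level of the highest PBS sample, whereas CTX replicates 2 and 3 lay below all PBS samples, so the groups overlapped. The fold of CTX over PBS was 0.843 (95% interval 0.598 to 1.19), with a log2 fold change of -0.25 ± 0.21 (SE) and an adjusted *P* of 0.519 by limma. The estimate was -0.08 without CTX replicate 3 and -0.42 without CTX replicate 1.

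*Kit* encodes the receptor of that ligand and lies at chr5:75574916-75656722 on the plus strand. It was the lowest of the 9 genes, with 0.390, 0.551 and 0.471 FPKM in PBS replicates 1 to 3 (0.471 ± 0.0802, SD, n = 3) and 0.508, 0.765 and 0.890 FPKM in CTX replicates 1 to 3 (0.721 ± 0.195). These levels rested on 62, 90 and 68 reads in PBS samples and on 82, 121 and 142 reads in CTX samples. CTX replicates 2 and 3 lay above all PBS samples, and CTX replicate 1 lay within the PBS range. The fold was 1.42 (95% interval 0.846 to 2.38), with a log2 fold change of 0.50 ± 0.31 (SE) and an adjusted *P* of 0.394 by limma. Its mean in PBS samples was under the minimum of 0.5 FPKM used to select genes for the test, and it was tested because the mean over all 6 samples passed. With any 1 sample removed, the estimate ran from 0.35 without CTX replicate 3 to 0.71 without CTX replicate 1. Over all 16 alternatives it ran from 0.22, with 1 in place of 0.1 added to each FPKM, to 0.76 under arrayWeights.

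Because the oocyte is the best known site of KIT in the follicle, *Kit* was set beside the oocyte markers. The 10 markers summed to 37.2, 80.0 and 75.1 FPKM in PBS replicates 1 to 3 and to 52.4, 92.1 and 87.4 FPKM in CTX replicates 1 to 3. All 10 had a higher mean in CTX samples, and none was at 0. None had groups that did not overlap, beside 15.0% higher and 14.1% lower of all tested genes. *Gdf9*, an oocyte growth factor and the highest of the list, was at 11.7, 23.7 and 21.1 FPKM in PBS samples and at 12.8, 23.0 and 24.6 FPKM in CTX samples. In each group replicate 1 had both the lowest *Kit* and the lowest sum of oocyte markers. In PBS samples both were highest in replicate 2. In CTX samples *Kit* was highest in replicate 3 and the sum in replicate 2. The part of the oocyte markers in the values of *Kit* was not tested, nor was that of the theca markers.

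**Figure D2:**
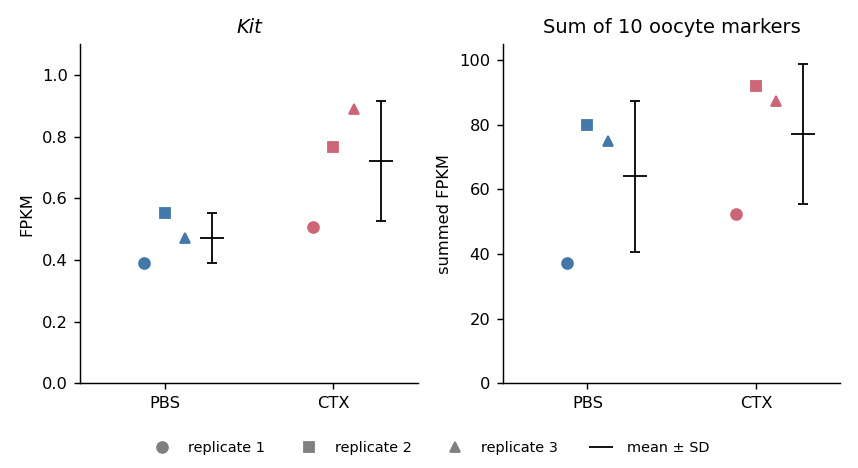
*Kit* (left, FPKM) and the sum of 10 oocyte markers (right, summed FPKM) in the same 3 PBS and 3 CTX samples, with replicate numbers as symbols and the mean ± SD of each group. Replicate 1 is the lowest sample of its group in both panels, and the groups overlap in both. Among CTX samples the highest is replicate 3 on the left and replicate 2 on the right.

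None of the PI3K transcripts passed the test, and their log2 fold changes had the narrowest range of the 8 lists, from -0.20 to 0.05. *Pik3ca*, at chr3:32397671-32468486 on the plus strand, encodes the alpha catalytic subunit and was measured at 7.37, 6.80 and 7.04 FPKM in PBS replicates 1 to 3 (7.07 ± 0.284, SD, n = 3) and at 6.23, 7.58 and 6.59 FPKM in CTX replicates 1 to 3 (6.80 ± 0.702). The CTX samples lay on both sides of the PBS range. The log2 fold change was -0.06 ± 0.095 (SE), with a 95% interval of -0.29 to 0.17 and an adjusted *P* of 0.745 by limma. Its direction was not held, since the estimate was 0.0008 without CTX replicate 1. A short unconfirmed transcript model, *Gm37123*, overlaps *Pik3ca* on the same strand over 1171 bases, and reads there could have been counted for either. *Pik3ca* accounted for 34.5% to 36.9% of the summed FPKM of the 4 catalytic subunits of class I in PBS samples and for 31.3% to 40.0% in CTX samples, a share computed after the values had been seen.

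Of the 9 PI3K subunits and PDK1 in the list, 8 were tested (*Pik3r5* was too low). None passed in either direction, beside 1.40% higher and 0.360% lower of all tested genes. In none did the groups separate, beside 15.0% higher and 14.1% lower of all tested genes. Their median log2 fold change was -0.03. The 2 farthest from 0 were *Pik3cg*, the gamma catalytic subunit, with a log2 fold change of -0.20 (adjusted *P* = 0.565 by limma), and *Pik3r1*, which encodes regulatory subunits, with -0.17 (adjusted *P* = 0.394).

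*Akt1* and *Akt2* encode the kinases that PI3K activates. *Akt1*, at chr12:112653821-112674884 on the minus strand, was measured at 55.6, 52.7 and 55.6 FPKM in PBS replicates 1 to 3 (54.6 ± 1.69, SD, n = 3) and at 59.0, 60.6 and 54.2 FPKM in CTX replicates 1 to 3 (57.9 ± 3.33). CTX replicates 1 and 2 lay above all PBS samples and CTX replicate 3 lay within their range. The log2 fold change was 0.08 ± 0.068 (SE), with a 95% interval of -0.08 to 0.25 and an adjusted *P* of 0.515 by limma.

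*Akt2*, the form best known for insulin signalling, lies at chr7:27591552-27640826 on the plus strand. It was measured at 28.7, 26.3 and 27.2 FPKM in PBS replicates 1 to 3 (27.4 ± 1.23, SD, n = 3) and at 28.2, 20.9 and 19.3 FPKM in CTX replicates 1 to 3 (22.8 ± 4.75). CTX replicate 1 lay within the PBS range and the other two CTX samples lay below it, the same arrangement as in *Kitl*. The log2 fold change was -0.28 ± 0.15 (SE), with a 95% interval of -0.63 to 0.07 and an adjusted *P* of 0.327 by limma. It was -0.45 without CTX replicate 1 (adjusted *P* = 0.0502 by limma) and -0.17 without CTX replicate 3 (adjusted *P* = 0.556).

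Among the 8 AKT kinases and substrates only *Mdm2*, the ubiquitin ligase of p53 that AKT phosphorylates and that p53 itself induces, passed the adjusted threshold. Its levels were 11.9, 12.9 and 11.4 FPKM in PBS replicates 1 to 3 and 24.1, 18.7 and 23.9 FPKM in CTX replicates 1 to 3. All CTX samples were above all PBS samples. *Mdm2* rose by 0.87 ± 0.12 (SE) on the log2 scale (adjusted *P* = 0.0224 by limma), less than 2-fold, and the list's median was 0.05. Over all tested genes, 1.40% passed with a higher level after CTX and 0.360% with a lower level.

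The called genes of the pathway also lay in the lists of brakes and of upstream adaptors. Of 10 genes listed as brakes on PI3K and AKT, 8 were tested, with a median log2 fold change of 0.24. Of those 8, 2 rose and none fell, beside 1.40% and 0.360% of all tested genes, a description of a list chosen with earlier results known. *Phlda3*, a p53 target whose product competes with AKT for membrane lipids, was at 1.51, 1.61 and 1.70 FPKM in PBS replicates 1 to 3 and at 24.4, 18.0 and 23.0 FPKM in CTX replicates 1 to 3. The lowest CTX sample was far above the highest PBS sample. *Phlda3* rose by 3.67 ± 0.13 (SE) on the log2 scale (adjusted *P* = 4.5e-04 by limma), and it was called in all 17 alternatives.

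*Trib1*, a pseudokinase of the tribbles family, was at 1.20, 1.45 and 1.29 FPKM in PBS samples and at 4.52, 2.53 and 3.80 FPKM in CTX replicates 1 to 3. It rose by 1.36 ± 0.22 (SE) on the log2 scale (adjusted *P* = 0.0430 by limma), a call that was lost in 9 of 16 alternatives. Whether the products of the tribbles genes restrain AKT in GCs was not tested, so their place among the brakes is that of the list only. The differences of this list lay on both sides of 0. The related gene *Trib2*, chosen after its values were seen, was at 156, 153 and 154 FPKM in PBS samples and lower in every CTX sample, at 123, 82.5 and 107 FPKM, with a log2 fold change of -0.59 and an adjusted *P* of 0.121 by limma.

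Upstream, 1 of 7 receptors and adaptors passed, with a higher level after CTX, as did 1.40% of all tested genes. *Irs2*, an adaptor that couples insulin and IGF1 receptors to PI3K, was at 3.63, 3.25 and 3.13 FPKM in PBS replicates 1 to 3 and at 9.70, 20.3 and 11.7 FPKM in CTX replicates 1 to 3. No CTX sample reached down to the PBS range, and CTX replicate 2 was the highest. *Irs2* rose by 1.96 ± 0.26 (SE) on the log2 scale (adjusted *P* = 0.0224 by limma). The call was lost without PBS replicate 1, 2 or 3, without CTX replicate 3 and with a block on the replicate number, where the adjusted *P* was 0.0890 to 0.128. Without CTX replicate 2 *Irs2* rose by 1.65. *Gab1*, a docking protein that binds PI3K, was next in size with a log2 fold change of 0.44 and an adjusted *P* of 0.203, and the median of the list was -0.04.

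The TSC complex restrains mTOR complex 1, and neither of its core transcripts passed the test. *Tsc1*, at chr2:28641228-28691167 on the plus strand, was measured at 4.89, 4.71 and 4.36 FPKM in PBS replicates 1 to 3 (4.65 ± 0.273, SD, n = 3) and at 3.84, 4.12 and 4.19 FPKM in CTX replicates 1 to 3 (4.05 ± 0.188). The groups did not overlap, and the highest CTX sample (4.19) was close to the lowest PBS sample (4.36). The fold was 0.873 (95% interval 0.754 to 1.01), with a log2 fold change of -0.20 ± 0.088 (SE) and an adjusted *P* of 0.278 by limma. The two-sided exact permutation test gave *P* = 0.1, the smallest value that 3 against 3 samples allow.

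*Tsc2*, which encodes the GTPase-activating partner, lies at chr17:24595816-24632630 on the minus strand. It was measured at 11.8, 12.0 and 10.7 FPKM in PBS replicates 1 to 3 (11.5 ± 0.736, SD, n = 3) and at 10.5, 11.3 and 11.0 FPKM in CTX replicates 1 to 3 (11.0 ± 0.393). The groups overlapped. The log2 fold change was -0.07 ± 0.075 (SE), with a 95% interval of -0.25 to 0.11 and an adjusted *P* of 0.619 by limma. *Pkd1*, on the opposite strand, overlaps *Tsc2* over 693 bases and was expressed at 7.17 to 10.6 FPKM, and the strand setting of the counting is not given in the sources used here.

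Of the 13 genes of the TSC complex and mTOR, all were tested and none passed, beside 1.40% higher and 0.360% lower of all tested genes. Groups did not overlap for 2 in the higher and 3 in the lower direction, beside 15.0% and 14.1% of all tested genes. The median log2 fold change of the list was 0.02. *Rps6*, a ribosomal protein that S6 kinase phosphorylates, had a log2 fold change of 0.38 (adjusted *P* = 0.229 by limma), and ribosomal protein genes share reads with processed pseudogenes. *Mlst8*, a subunit of both mTOR complexes, was at 8.40, 8.20 and 7.92 FPKM in PBS samples and at 6.00, 6.33 and 6.78 FPKM in CTX samples. All 3 CTX samples of *Mlst8* were below the PBS samples, with a log2 fold change of -0.36 and an adjusted *P* of 0.0905.

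*Foxo1* was the most abundant of the 9 genes. It lies at chr3:52268336-52353221 on the plus strand and was measured at 87.1, 80.0 and 81.5 FPKM in PBS replicates 1 to 3 (82.9 ± 3.76, SD, n = 3) and at 84.0, 132 and 82.3 FPKM in CTX replicates 1 to 3 (99.5 ± 28.2). CTX replicates 1 and 3 lay within the PBS range, and CTX replicate 2 alone lay above it. The log2 fold change was 0.23 ± 0.19 (SE), with a 95% interval of -0.22 to 0.68 and an adjusted *P* of 0.512 by limma. Without CTX replicate 2, the sample that stood apart across all genes, it was 0.0062 with an adjusted *P* of 0.972.

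*Foxo3* was the member closest to the threshold. It encodes the FOXO factor known for holding primordial follicles dormant in the oocyte, and it lies at chr10:42181841-42276755 on the minus strand. It was measured at 13.3, 11.6 and 11.2 FPKM in PBS replicates 1 to 3 (12.0 ± 1.14, SD, n = 3) and at 16.9, 13.7 and 15.5 FPKM in CTX replicates 1 to 3 (15.4 ± 1.59). The groups did not overlap, and the lowest CTX sample (13.7 FPKM) was close to the highest PBS sample (13.3 FPKM). The fold was 1.27 (95% interval 1.06 to 1.52), with a log2 fold change of 0.35 ± 0.11 (SE), an unadjusted *P* of 0.0163 and an adjusted *P* of 0.174 by limma. The two-sided exact permutation test gave *P* = 0.1, again the smallest possible. With any 1 sample removed the log2 fold change stayed between 0.28 and 0.43 and the adjusted *P* between 0.0795 and 0.444. The part of oocytes carried with the GCs in the values of *Foxo3* was not tested.

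The other two FOXO factors were lower in abundance. *Foxo6* was at 1.74, 1.65 and 1.63 FPKM in PBS replicates 1 to 3 and at 3.04, 2.82 and 2.43 FPKM in CTX replicates 1 to 3, with all CTX samples above all PBS samples. Its log2 fold change of 0.69 had an adjusted *P* of 0.0591 by limma, which ran from 3.0e-03 under arrayWeights to 0.261 without PBS replicate 2 over 16 alternatives and passed in 2 of them. *Foxo4*, which completes the family, had a log2 fold change of -0.05. The summed FPKM of the 4 FOXO genes was 104 to 113 in PBS samples and 115, 159 and 110 in CTX replicates 1 to 3. *Foxo1* supplied 76.6% to 78.1% of it in PBS and 73.2% to 83.1% in CTX samples, shares that were computed after the values had been seen.

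**Figure D3:**
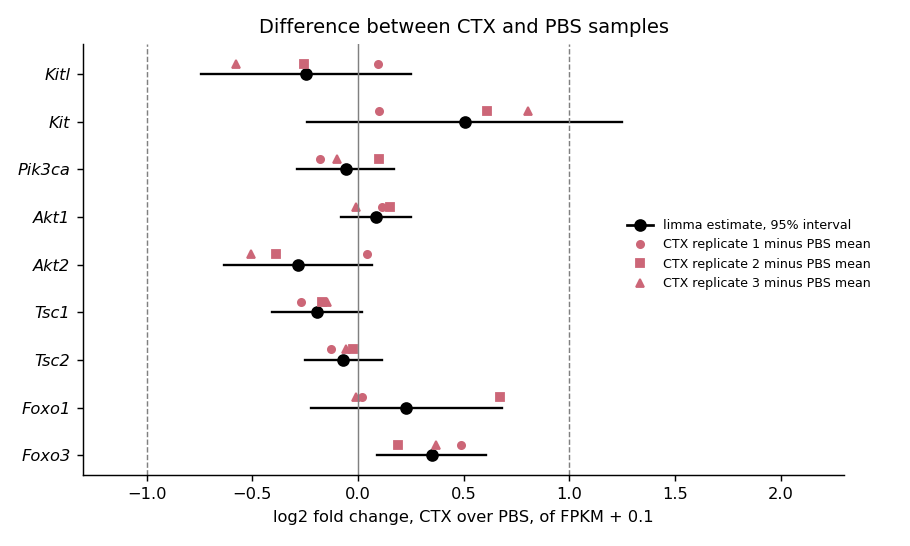
Difference between CTX and PBS samples for the 9 genes as the log2 fold change of FPKM + 0.1 (horizontal axis). Black points and lines are the limma estimate with its 95% interval, red symbols are the 3 CTX samples minus the PBS mean, and dashed lines mark a 2-fold change. The interval of *Foxo3* (0.09 to 0.61) lies to the right of 0, those of the other 8 genes cross 0, and that of *Kit* reaches past the 2-fold line, to 1.25.

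The 16 FOXO target genes, a list of textbook targets that other factors also control, had a median log2 fold change of 0.22. Of them 2 rose and none fell, beside 1.40% and 0.360% of all tested genes, again a description of a list chosen with earlier results known. Groups did not overlap for 9 in the higher and 1 in the lower direction, beside 15.0% and 14.1% of all tested genes. *Klf2*, a Krüppel-like transcription factor, was at 16.9, 15.5 and 15.9 FPKM in PBS replicates 1 to 3 and at 43.7, 52.8 and 63.1 FPKM in CTX replicates 1 to 3. *Klf2* rose by 1.70 ± 0.14 (SE) on the log2 scale (adjusted *P* = 3.4e-03 by limma), and it was called in all 17 alternatives. *Pdk4*, a kinase that shuts off pyruvate dehydrogenase, was at 6.11, 5.76 and 4.91 FPKM in PBS samples and at 13.2, 23.6 and 18.0 FPKM in CTX samples. For both genes the groups were well apart. *Pdk4* rose by 1.66 ± 0.21 (SE) on the log2 scale (adjusted *P* = 0.0211 by limma). The calls of *Pdk4*, *Mdm2* and *Trib1* were also lost without PBS replicate 1, 2 or 3, without CTX replicate 3 and with a block on the replicate number.

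**Figure D4:**
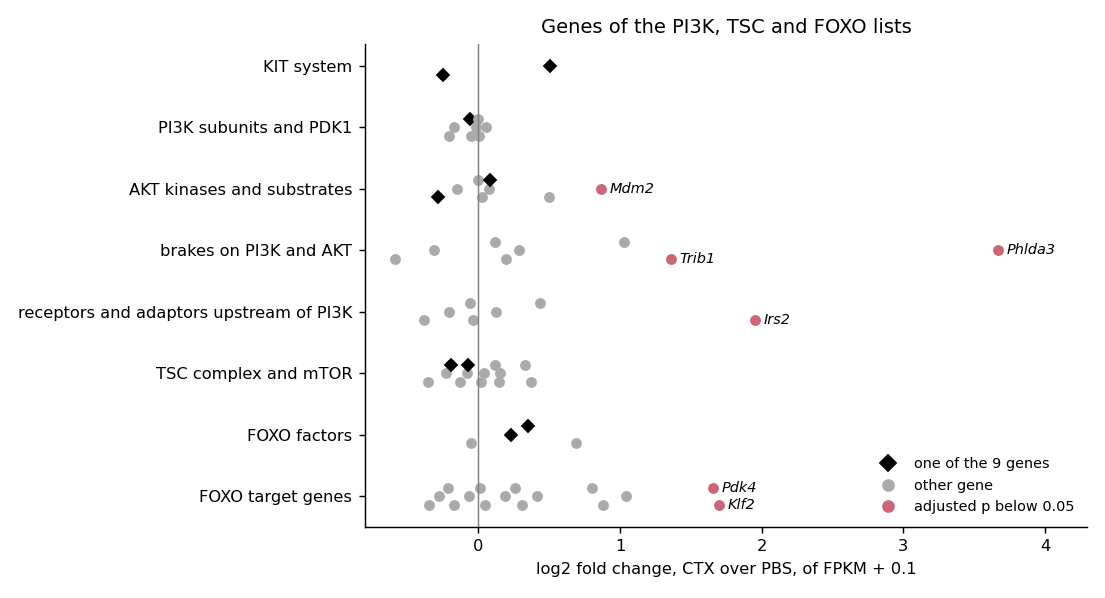
Log2 fold change of FPKM + 0.1, CTX over PBS (horizontal axis), of every tested gene in 8 lists (rows, spread vertically only for legibility), with the 9 genes as black diamonds, the genes with an adjusted *P* below 0.05 in red and all other genes in gray. The 6 red points all lie to the right of 0, from *Mdm2* at 0.87 to *Phlda3* at 3.67, and the diamonds lie between -0.28 and 0.50.

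FOXO factors bind the core GTAAACA, so the promoters of these genes were searched for it on both strands (TGTTTAC on the other strand). The windows, from RefSeq on GRCm38.p6, ran from 250 bases before to 50 bases after each annotated start. The core was present in 1199 of 32851 windows (3.65%), belonging to 1095 of 27025 genes (4.05%). Windows matched all 9 genes, and 1 of the 9, *Akt1*, held the core, in 1 of 14 windows. Of the other pathway genes with a window, 6 of 50 held it (*Bcl2l11*, *Mapkap1*, *Mdm2*, *Pik3cg*, *Sesn1* and *Txnip*, named for the match alone). Stretches of 100 bases are shown for the only match among the 9 genes, for the only match among the 5 called genes with a window and for *Txnip*, a FOXO target chosen after its values were seen, with the core in capitals and each stretch read 5′ to 3′ on the strand of its gene. They lie at chr12:112674992-112675091 (minus strand) for *Akt1*, at chr10:117710858-117710957 (minus strand) for *Mdm2* and at chr3:96557790-96557889 (plus strand) for *Txnip*.
Akt1: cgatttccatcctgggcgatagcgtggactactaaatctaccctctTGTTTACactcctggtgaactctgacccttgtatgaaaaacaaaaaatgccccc
Mdm2: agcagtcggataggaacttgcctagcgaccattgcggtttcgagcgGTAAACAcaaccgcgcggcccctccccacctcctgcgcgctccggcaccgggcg
Txnip: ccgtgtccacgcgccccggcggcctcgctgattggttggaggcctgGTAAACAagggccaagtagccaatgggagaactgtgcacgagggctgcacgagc
The core started 161 bases before the start in *Akt1*, 153 before it in *Mdm2* and 121 before it in *Txnip*. *Akt1* did not pass the test and *Mdm2* did. *Txnip*, which encodes an inhibitor of thioredoxin, was at 76.0, 69.9 and 75.8 FPKM in PBS replicates 1 to 3 and at 91.7, 264 and 145 FPKM in CTX replicates 1 to 3, with a log2 fold change of 1.04 and an adjusted *P* of 0.197 by limma. *Klf2*, *Pdk4*, *Foxo1* and *Foxo3* had no match in these windows. A match describes the letters and not a site in use.

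Ratios of related genes within a sample do not depend on scaling between samples, and 4 were compared by a two-sided exact permutation test. The ratio of *Akt1* to *Akt2* was 1.93, 2.00 and 2.05 in PBS replicates 1 to 3 and 2.09, 2.89 and 2.81 in CTX replicates 1 to 3. It was higher in every CTX sample, by 0.37 on the log2 scale (exact permutation *P* = 0.1, 0.2 adjusted over the 4 ratios). The ratio of *Tsc1* to *Tsc2* was 0.414, 0.391 and 0.408 in PBS samples and 0.365, 0.365 and 0.380 in CTX samples. It was lower in every CTX sample, with a log2 difference of -0.13 (exact permutation *P* = 0.1, 0.2 adjusted).

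The other two ratios overlapped between groups. The ratio of *Kitl* to *Kit* was 4.13, 2.68 and 3.66 in PBS replicates 1 to 3 and 3.38, 1.73 and 1.17 in CTX replicates 1 to 3, a log2 difference of -0.86 (exact permutation *P* = 0.2, 0.267 adjusted). It was -0.51 without CTX replicate 3 and -1.27 without CTX replicate 1. *Kit* rested on 62 to 142 reads per sample. Ligand and receptor are made by different cells of the follicle, and the part of the cell mix in this ratio was not tested. The ratio of *Foxo1* to *Foxo3* was 6.53, 6.91 and 7.26 in PBS samples and 4.98, 9.64 and 5.30 in CTX samples. CTX replicate 2 lay above and the other two CTX samples lay below all PBS samples, so that the log2 difference was -0.12 (exact permutation *P* = 0.9, 0.9 adjusted), -0.42 without CTX replicate 2, 0.052 without CTX replicate 1 and 0.0069 without CTX replicate 3. With 3 samples a group, none of these tests could reach 0.05.

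**Figure D5:**
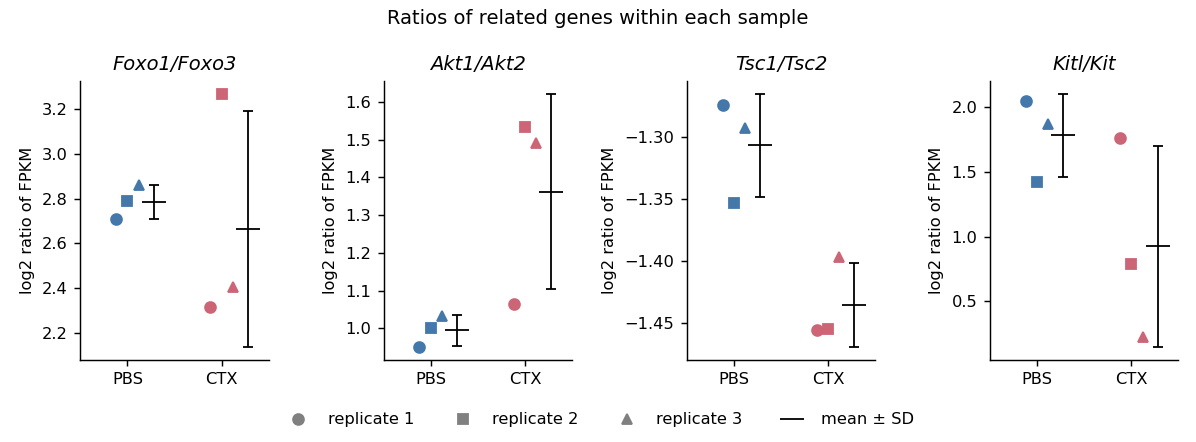
Log2 ratio of FPKM within each sample (vertical axes, which do not start at 0 and differ between panels) for *Foxo1* to *Foxo3*, *Akt1* to *Akt2*, *Tsc1* to *Tsc2* and *Kitl* to *Kit*, in 3 PBS samples (blue) and 3 CTX samples (red), with the mean ± SD of each group. The groups are apart for *Akt1* to *Akt2* and for *Tsc1* to *Tsc2* and overlap for the other two.

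The genes whose levels most resembled those of *Kitl*, *Kit*, *Foxo1* and *Foxo3* were sought among 7530 or 7531 protein-coding genes with a mean of at least 5 FPKM, by Pearson's r of the log2 levels over the 6 samples, given as a description. The points share their libraries and their treatment groups, and with 6 samples and so many genes high values occur readily. For *Kitl* they were *Ap3m1* (r = 0.996), *Necap2* (0.991) and *Abhd17b* (0.987). Each of them, like *Kitl*, was lowest in CTX replicate 3. For *Kit* they were *Ccdc9* (0.986), *Dnttip1* (0.985) and *Eif4enif1* (0.985), which encodes a partner of the cap-binding protein, and each was highest in CTX replicate 3. For *Foxo1* they were *Fbxo21* (0.995), *Col4a6* and *Plod2* (both 0.992), each highest in CTX replicate 2. For *Foxo3* they were *Usf2* (0.988), *Rrp36* (0.987) and *Man2b2* (0.984), each highest in CTX replicate 1.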

How the data were processed

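RNA-seq of 6 GC samples (3 PBS, 3 CTX, grouped by their labels) was used. The authors deposited FPKM values for 54532 genes with gene length and mm10 coordinates. The submitters' processing notes list CASAVA 1.8, fastp, HISAT2 2.0.5, featureCounts 1.5.0-p3 and DESeq2 1.20.0, and sequencing and analysis were done at a company. The strand setting and the options of the counting are not given in the sources used here. The deposited group means, log2 fold changes, *P*-values and adjusted *P*-values of the authors' own comparison were not used, and 0 columns of per-sample values were left unused. Multiplied by length, 100% of the values under 200 reads gave whole reads within 0.01, so read numbers could be rebuilt (16005869 to 17790353 per PBS sample and 17727770 to 18455011 per CTX sample). A between-sample scaling was already part of the deposited FPKM. Of the identifiers, 54409 occurred in GENCODE M21 and 98.33% of those had the same coordinates, including those of all 9 genes.

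Levels were compared as log2(FPKM + 0.1), which understates changes of low genes, with limma 3.58.1 in R 4.3.3 (a linear model per gene, moderated with eBayes and its trend option), over the 14463 genes with a mean of at least 0.5 FPKM, with Benjamini-Hochberg adjustment over all of them. The 3 samples of a group came from separate mice. Replicate numbers are shared between groups, but same-numbered samples came from different mice, so the main fit used no block. Over all tested genes their deviations correlated little (mean r 0.0285, from 0.0058 to 0.0556, against -0.0142 for different numbers). Whether some genes share an effect of the replicate number was not tested. Single values were compared by exact permutation tests in Python 3.11.15 with NumPy 2.4.6. The 9 genes and the gene and marker lists were chosen with earlier results of these data known.

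Genes were named by a rule: the 9 genes, every gene of the pathway lists with an adjusted *P* below 0.05, the 2 of each list with the largest absolute log2 fold change, the highest gene of each marker list, and the 3 genes most like each of *Kitl*, *Kit*, *Foxo1* and *Foxo3*. Others are marked in the text, and 1 gene that the rule names is not reported here. The fit was repeated with a pseudocount of 1 or 0.01, with no filter or a minimum mean of 5 FPKM, and with median-of-ratios, 75th percentile and quantile scaling, a replicate block, arrayWeights, eBayes without trend, voom on the rebuilt reads, and each sample left out in turn. Protein sequences were not used here.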

Additional observations from a re-analysis of the deposited data

How the results depend on the processing

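No member passed the adjusted threshold under 16 of the 17 alternatives. Under arrayWeights, whose iteration did not converge and under which 39.8% of all tested genes passed, 5 members did (*Akt2*, *Foxo3*, *Tsc1*, *Kitl* and *Kit*). Directions of the members held throughout, except that *Pik3ca* ran from -0.14 without CTX replicate 2 to 0.0008 without CTX replicate 1. The difference of *Foxo1* to *Foxo3* ran from -0.42 to 0.052 when samples were left out, and was 0.052 without CTX replicate 1 and 0.0069 without CTX replicate 3. The number of members whose groups did not overlap, 2, was 1 with a minimum mean of 5 FPKM, where *Tsc1* was not tested, and 5 without CTX replicate 1 (*Foxo3* and *Kit* higher, *Akt2*, *Tsc1* and *Kitl* lower), when 23.7% and 25.1% of all genes were apart in those directions.

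The 6 called pathway genes became 2 (*Phlda3* and *Klf2*) with the replicate block, and also without PBS replicate 1, 2 or 3 or CTX replicate 3. They became 31 under arrayWeights, and 2 to 8 over all samples left out. *Trib1* was also lost with a pseudocount of 1, without the filter, without the trend and without CTX replicate 1. Over all genes, 139 DEGs became 50 with the replicate block, 657 under arrayWeights and 58 to 208 with a sample left out. The 254 genes with an adjusted *P* below 0.05 became 53, 5753 and 70 to 528. The 4217 genes whose groups did not overlap became 2612 with a minimum mean of 5 FPKM and 5028 to 7066 with a sample left out. The cause of these shifts was not tested, and some of these fits also held fewer samples or genes. The block changed no call of a member, and its pairing rests on a shared number only. *Kit*, at 62 to 142 reads per sample, and *Kitl*, at 110 to 184, are the members whose precision depth limits most.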
